A study of Homo sapiens with 3 samples.

Results

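Ribosome biogenesis factors are the proteins that transcribe, fold, cut and modify ribosomal RNA in the nucleolus and join it to ribosomal proteins. RNA polymerase I makes the long precursor, small nucleolar ribonucleoproteins (snoRNPs) modify it, the small subunit processome and later factors shape the small subunit, and a separate set of factors assembles the large subunit. Fast-growing cells such as pluripotent stem cells make many ribosomes, and the transcription factor MYC is known to act on many of these genes through E-boxes. The mRNAs described here are those of the UTP, NOP, NOL, NOC, RRP, TSR and IMP series, of POLR1A to POLR1H, and of RRS1, BOP1, PES1, WDR12, NCL, FBL, DKC1, NHP2, GAR1, BMS1 and MPHOSPH10. They were chosen by gene symbol, leaving out NOP53, and only where a probe set of the array lists that symbol alone. This gave 61 genes of 18417 named genes. NOL3, NOL4 and NOL4L match by symbol only and are not established ribosome synthesis factors. NOP56 and UTP14C share their probe sets with other genes, so they are not members.

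RNA came from H9, an established human embryonic stem cell line held in pluripotent conditions, with no treatment named in the labels. The 3 sources were RNA bound to polysomes (mRNAs with several ribosomes at work on them), RNA not bound to polysomes, and total RNA. For each source 1 array was hybridised, so no difference given here has a replicate check and no p-value can be had. The labels do not say whether the polysome pools and the total RNA came from the same culture.

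All values are log2. A level is the value as deposited, and it is compared only between arrays for the same gene, since probe sets of different genes are not on a common scale. The median level of the 12057 genes past a filter on low values was 7.23 (bound), 5.97 (unbound) and 6.20 (total). A relative difference subtracts the difference of these medians, which was 1.26 for bound minus unbound, 1.03 for bound minus total and -0.23 for unbound minus total. A gene is called apart at a relative difference of 1 (2-fold). Background on each array was the 95th percentile of 459 tissue-restricted genes such as olfactory receptors, which lay at 4.39 (bound), 3.57 (unbound) and 3.76 (total). All 10 pluripotency markers examined were above background on all 3 arrays, LIN28A at 11.50, 10.98 and 11.10 for bound, unbound and total RNA. Of 10 markers of differentiated cells, the number above background was 4 in bound, 3 in unbound and 3 in total RNA.

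Of the 61 ribosome biogenesis mRNAs, 60 were above background on each array and the same number passed the level filter. The exception was NOL4, at 3.69 in bound, 2.89 in unbound and 3.16 in total RNA. With the 99th percentile of the tissue-restricted genes as the line, the number above it was 52 in bound, 54 in unbound and 54 in total RNA.

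Promoter letters of the members are shown here because letters at the transcription start are the known basis on which one class of mRNAs leaves polysomes. Messenger RNAs of ribosomal proteins begin with a C followed by a run of C and T, the terminal oligopyrimidine tract, through which growth signalling controls their translation. RefSeq windows (GRCh38.p14) from 250 bases before to 50 bases after the most upstream annotated start were available for 52 of the 61 members. Those without one were BOP1, MPHOSPH10, NOL10, NOP58, POLR1E, RRP12, RRP1B, RRS1 and UTP23. A tract, searched as a C at the start base followed by 4 bases that are each C or T on the coding strand, stood at the start of 2 members, FBL and UTP14A. That is 3.85% of the members with a window, against 4.04% of all 27305 genes in the table and 68.8% of 48 cytosolic ribosomal protein genes. A tract beginning within 5 bases of the start stood in 5 members (9.62%), against 19.7% of all genes in the table. The share was 21.8% of the genes past the level filter that have a window and 81.25% of the ribosomal protein genes. The windows below run from 10 bases before the start to 20 bases from it, 5′ to 3′ on the coding strand, and capitals mark an unbroken run of C and T from the start base. They are those of the 2 genes with a tract at the start base, then of 3 more of the least polysome-bound members, then of 4 of the most bound.
FBL: cgcctgcgctCTTTTCCacgtgcgaaagcc
UTP14A: aaattgctttCCTTCggcttccgttcttgg
NOL12: ggatgagtacgctacacccggaagtgtctt
POLR1D: gagtgagaccactccgccctcgccgcccgc
UTP3: aggaaattccagtagccgatcaggagtctg
TSR2: gggacgtcacgtggactggggccggataat
NOP9: tcaggagcgcgcccgcgtttctaaactttg
NOC2L: tggggtgcacgcttcgggttggtgtcatgg
NOL6: gcctggagttaggcatttccgcccacgtgg
The FBL window lies at chr19:39846360-39846389 on the minus strand and that of UTP14A at chrX:129906154-129906183 on the plus strand. An annotated start can differ from the start used in these cells, and no match says only that these letters are not in this window.

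The E-box CACGTG, the known binding sequence of MYC and related factors, reads the same on both strands. It was present in the windows of 19 of the 52 members (36.5%), against 7.41% of all genes in the table, 10.1% of the genes past the level filter that have a window and 4.17% of the ribosomal protein genes. In 15 of these 19 members (78.9%) the first base of an E-box lay within 20 bases of the annotated start, against 16.3% of the 2022 genes in the table that hold one. The distance of 20 bases was chosen after the positions were seen. Below are 6 of the members whose E-box lies that close before the start, each in a window of 30 bases with the E-box in capitals.
TSR2: ccgccgggacgtCACGTGgactggggccgg
RRP9: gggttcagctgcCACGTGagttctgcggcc
NOL8: gctccgttgggaCACGTGaccagaagttag
UTP20: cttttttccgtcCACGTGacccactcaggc
NOP10: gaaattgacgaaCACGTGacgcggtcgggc
UTP4: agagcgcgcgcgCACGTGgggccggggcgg
The first base of the E-box stands 3 bases before the start in TSR2, 5 in RRP9, 9 in NOL8, 10 in UTP20, 11 in NOP10 and 16 in UTP4. In FBL it stands 6 bases after the start base, so that its first C is the last base of the tract. The TSR2 window lies at chrX:54440389-54440418 on the plus strand and the UTP4 window at chr16:69132621-69132650 on the plus strand.

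**Figure D1:**
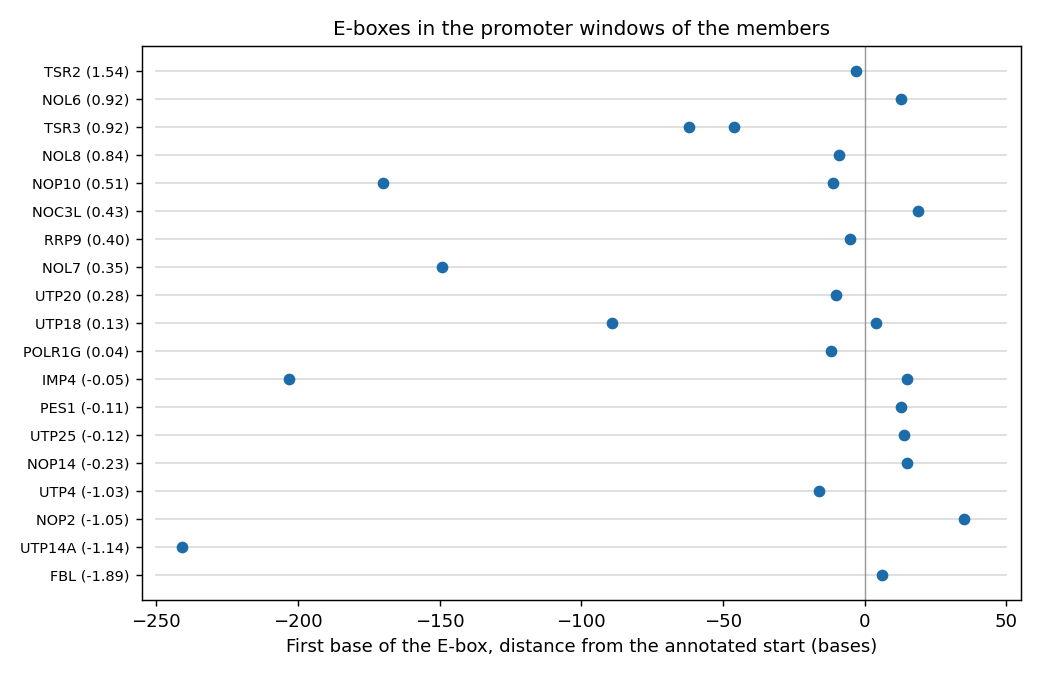
Positions of E-boxes (CACGTG) in the promoter windows of the 19 members that hold one. The x axis is the distance in bases of the E-box's first base from the annotated start, each grey line is the window of 1 gene, points are E-boxes, and the value after each symbol is its relative difference of bound minus unbound RNA (log2). In 15 of the 19 genes a point lies within 20 bases of the start, and these genes run from FBL (-1.89) to TSR2 (1.54).

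How far these mRNAs were held on polysomes is addressed by setting bound against unbound RNA. As a group they lay where most genes did: the 60 members had a median relative difference of 0.03, against -0.07 over all 12057 genes, with 32 above 0 and 28 below. They were spread among themselves from -1.89 for FBL to 1.54 for TSR2, with an SD across members of 0.78. Past the 2-fold line toward bound RNA stood 3 of the 60, TSR2, NOP9 and RRP1B, where 6.36% of all genes did. Past the line toward unbound RNA stood 10 members, where 9.91% of all genes did. The members' count on that side is 16.7% of 60 and consists of FBL, NOL12, UTP3, POLR1D, POLR1E, POLR1H, UTP14A, NOP2, UTP4 and RRS1. The last of these, RRS1 (-1.01), stood just past the line and POLR1C (-0.95) just short of it. A line at 1.5-fold gave 13 members higher, where 17.7% of all genes were, and 13 lower, where 22.1% were. A line at 3-fold left 0 members higher, where 0.846% of all genes were, and 1 lower, where 3.88% were. As deposited, with no centring, 43 members were higher in bound RNA by 2-fold or more, where 61.4% of all genes were, and 0 were 2-fold lower, where 1.56% of all genes were. After quantile normalization 9 members were 2-fold higher, where 10.8% of all genes were, and 8 were lower, where 7.29% were. As deposited, 6 of the 60 members had a lower level on the bound array than on the unbound one, where 751 of all 12057 genes did. These members were FBL, NOL12, UTP3, POLR1D, POLR1E and POLR1H, the last by the brighter of its 2 probe sets only.

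**Figure D2:**
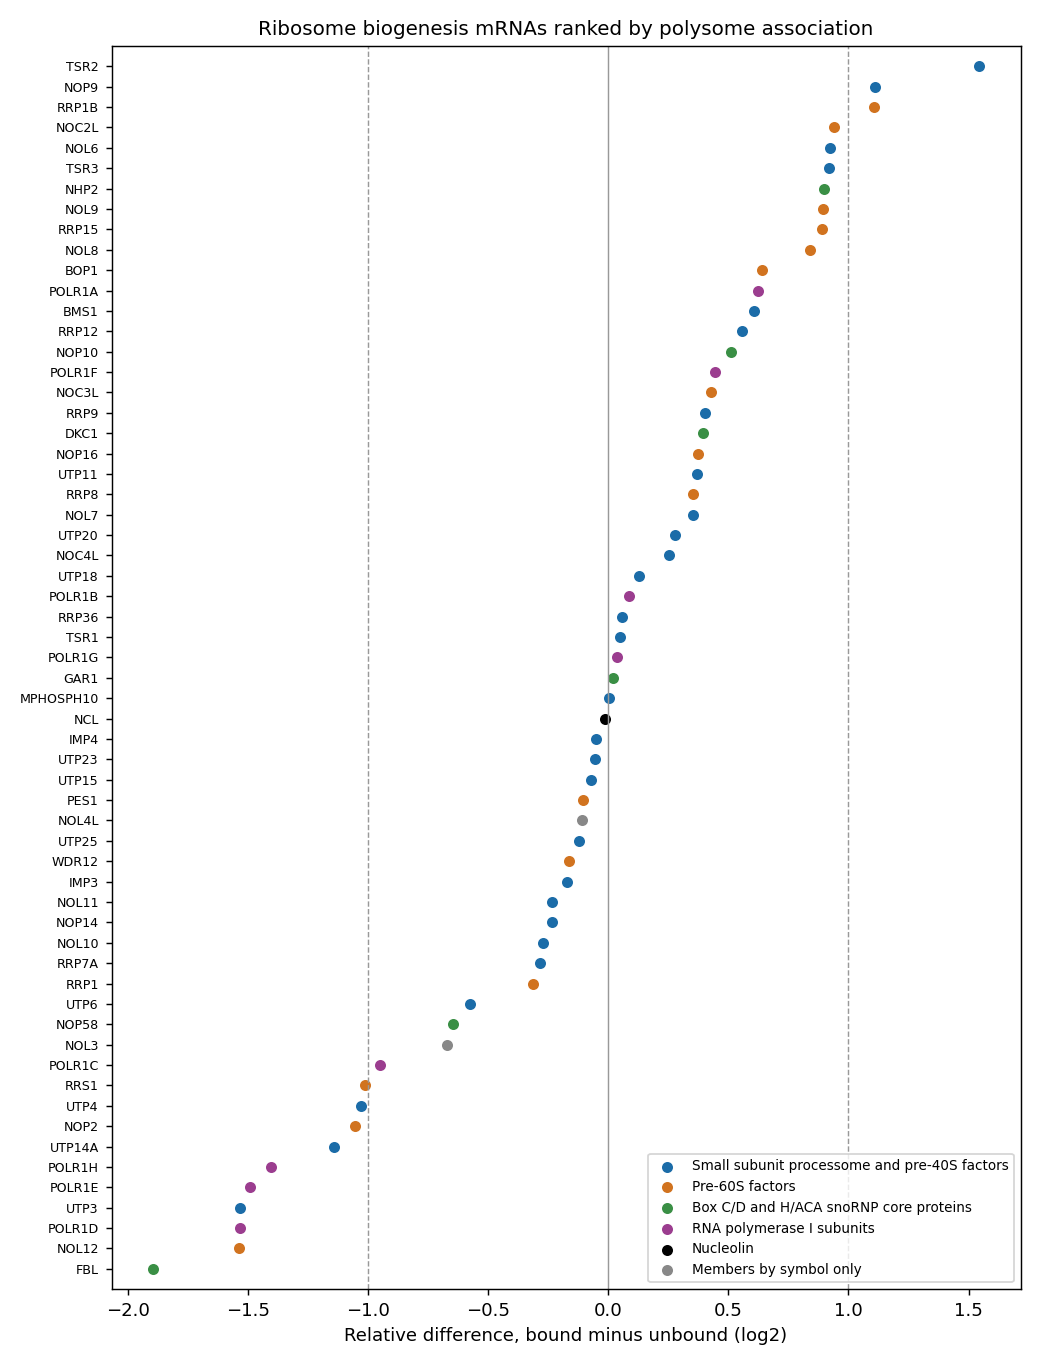
Relative difference of bound minus unbound RNA (log2, x axis) for the 60 members past the level filter, ranked from TSR2 (1.54) at the top to FBL (-1.89) at the bottom and coloured by role, with 1 point per gene from 1 array per source. Dashed lines mark 2-fold. Of the 10 genes past the left line, 3 are of the 8 RNA polymerase I subunits among the 60. POLR1H is shown by the brighter of its 2 probe sets, and the other gave -0.82.

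Core proteins of the snoRNPs, which carry the guide RNAs and the modifying enzymes, differed among themselves, with the lowest and the next lowest in the box C/D class. FBL, fibrillarin, the methyltransferase of box C/D snoRNPs, had a level of 9.71 in bound RNA, against 10.34 in unbound RNA and 10.09 in total RNA. It was the only one of the 6 measured core proteins lower on the bound than on the unbound array as deposited, and 2.41% of all genes had a lower relative difference of bound minus unbound. NOP58, a scaffold protein of the same particles, had 9.06 in bound RNA, against 8.44 in unbound and 8.60 in total RNA, a relative difference of bound minus unbound of -0.65.

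The H/ACA class, which converts uridine to pseudouridine and also holds telomerase RNA, lay at or above 0 in bound minus unbound RNA. DKC1, dyskerin, its pseudouridine synthase, had 8.36 in bound RNA, against 6.71 in unbound and 8.01 in total RNA (relative difference of bound minus unbound 0.39). NOP10, a small subunit of the particle, had 8.63 in bound RNA, against 6.85 in unbound and 7.61 in total RNA (0.51). All 4 measured H/ACA proteins were higher on the bound than on the unbound array as deposited, as were 11306 of all 12057 genes. GAR1 had 5.77 in bound RNA, against 4.49 in unbound and 4.86 in total RNA (0.02). NHP2 had 8.06 in bound RNA, against 5.90 in unbound and 7.24 in total RNA (0.90). A second NHP2 probe set gave 8.03, 6.08 and 7.03 for bound, unbound and total RNA (0.69). In unbound minus total RNA the first gave -1.11 and the second -0.72, so that only the first was past the 2-fold line there.

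The subunits of RNA polymerase I fell on both sides. The 8 subunits had a median relative difference of bound minus unbound of -0.46, from -1.53 to 0.63, with 3 at least 2-fold lower in bound RNA and 0 higher, where 9.91% and 6.36% of all genes were. POLR1A, the largest subunit, had 7.32 in bound RNA, against 5.43 in unbound and 7.08 in total RNA (0.63). POLR1B, which forms the catalytic core with it, had 7.34 in bound RNA, against 5.99 in unbound and 7.0 in total RNA (0.09). Both lay higher on the bound than on the unbound array by more than the offset between the arrays.
POLR1C and POLR1D, which RNA polymerase III shares, lay on the other side. POLR1D had 8.24 in bound RNA, against 8.51 in unbound and 7.37 in total RNA (-1.53). POLR1C had 7.70 in bound RNA, against 7.38 in unbound and 7.11 in total RNA (-0.95). The remaining subunits were split in the same way. POLR1E, part of a dimer that helps initiation, had 7.37 in bound RNA, against 7.60 in unbound and 7.03 in total RNA (-1.49), while its partner POLR1G had 4.93, against 3.64 and 4.32 (0.04). POLR1H, which takes part in RNA cleavage by the enzyme, had 6.25 in bound RNA, against 6.39 in unbound and 5.62 in total RNA (-1.40). The partners POLR1E and POLR1G therefore lay on different sides of the 2-fold line. A second POLR1H probe set was dimmer, at 4.19 in bound RNA, against 3.75 in unbound and 3.60 in total RNA, so that it was below background in bound and in total RNA (-0.82, short of the 2-fold line). POLR1F, a stalk subunit, had 7.71 in bound RNA, against 6.0 in unbound and 6.62 in total RNA (0.44).

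**Figure D3:**
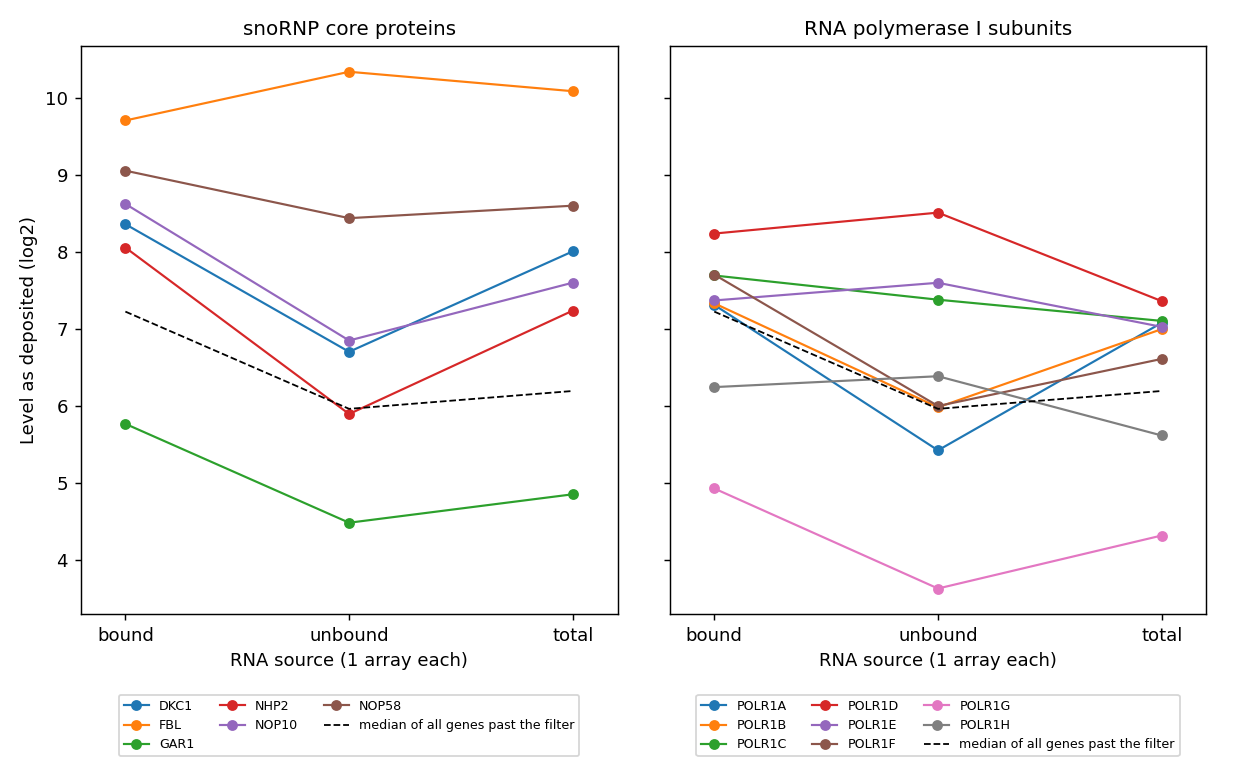
Levels as deposited (log2, y axis) of 6 snoRNP core proteins and 8 RNA polymerase I subunits on the bound, unbound and total RNA arrays (x axis, 1 array each), with 1 line per gene; the dashed line is the median of the 12057 genes past the level filter. FBL, POLR1D, POLR1E and POLR1H are higher on the unbound than on the bound array, against the direction of the dashed line (7.23 in bound and 5.97 in unbound RNA). Lines of different genes are not compared in height.

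Factors of the small subunit processome and of the later small subunit precursor made the largest role group. The 28 measured factors had a median relative difference of bound minus unbound of 0.03. Of these, 2 (7.14%) were at least 2-fold higher and 3 (10.7%) lower, where 6.36% and 9.91% of all genes were. TSR2, which in yeast brings a ribosomal protein of the small subunit to the precursor, had 8.07 in bound RNA, against 5.26 in unbound and 6.44 in total RNA. Its relative difference of 1.54 exceeded that of 98.9% of all genes. NOP9, which in yeast binds the precursor RNA, had 7.37 in bound RNA, against 4.99 in unbound and 6.20 in total RNA (1.11). NOL6, a scaffold protein of the processome, had 6.55 in bound RNA, against 4.37 in unbound and 6.15 in total RNA (0.92). TSR3, an enzyme that modifies a base of the small subunit RNA, was close to it at 0.92. At the other end, UTP3 had 8.02 in bound RNA, against 8.29 in unbound and 7.57 in total RNA (-1.53). UTP14A, one of the 2 members with a start-site tract, had 7.28 in bound RNA, against 7.16 in unbound and 6.96 in total RNA (-1.14). UTP4, cirhin, which belongs to the subcomplex that binds the precursor first, had 9.10 in bound RNA, against 8.86 in unbound and 9.20 in total RNA (-1.03). MPHOSPH10, IMP3 and IMP4, which form 1 complex, were close together, with relative differences of 0.00, -0.17 and -0.05. NOP14 (-0.23) and its partner NOC4L (0.25) lay on different sides of 0. UTP15 (-0.07) and NOL11 (-0.23), which belong to the same subcomplex as UTP4, lay nearer to 0 than it did.

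Factors of the large subunit had a median relative difference of bound minus unbound of 0.37 over 15 genes. Of these, 1 was at least 2-fold higher and 3 were lower, where 6.36% and 9.91% of all genes were. RRP1B, a nucleolar protein related to yeast Rrp1, had 8.21 in bound RNA, against 5.84 in unbound and 7.51 in total RNA (1.11). Its paralogue RRP1 had 7.46 in bound RNA, against 6.51 in unbound and 6.71 in total RNA (-0.31). The paralogues thus differed by more than 2-fold in polysome association. NOC2L had 8.15 in bound RNA, against 5.94 in unbound and 8.03 in total RNA (0.94). NOL12, an RNA-binding protein needed for precursor processing, had 5.93 in bound RNA, against 6.20 in unbound and 5.0 in total RNA (-1.54). It was the one large subunit factor lower on the bound than on the unbound array as deposited. NOP2, which methylates the large subunit RNA, had 6.93 in bound RNA, against 6.72 in unbound and 6.99 in total RNA (-1.05). RRS1, which helps to place the 5S particle, had 5.98 in bound RNA, against 5.72 in unbound and 5.87 in total RNA (-1.01). The PeBoW complex, which is needed for large subunit maturation, did not stand at 1 end: PES1 had -0.11, WDR12 -0.16 and BOP1 0.64, with 0.23 from a second BOP1 probe set. NCL, nucleolin, an abundant nucleolar protein, had 10.68 in bound RNA, against 9.43 in unbound and 11.09 in total RNA (-0.01). This NCL difference depended on the scaling. It was 0.69 after quantile normalization and 0.39 after removal of the trend with the mean level of the 2 arrays. Of the members by symbol only, NOL3, an inhibitor of cell death, had 5.31 in bound RNA, against 4.72 in unbound and 4.72 in total RNA (-0.67). NOL4L had 7.07 in bound RNA, 5.92 in unbound RNA and 5.80 in total RNA, with a relative difference of bound minus unbound of -0.11.

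Neither promoter feature divided the members cleanly. Both members with a tract at the start, FBL (-1.89) and UTP14A (-1.14), stood past the 2-fold line toward unbound RNA. So did 6 of the 49 without one, among them POLR1D, UTP3 and NOL12, whose windows are printed above. Of all genes 9.91% stood there. The 5 members with a tract within 5 bases of the start had a median of -0.95, against 0.11 in the 46 without. At least 2-fold lower were 2 of the 5 and 6 of the 46. Members with an E-box had a median relative difference of bound minus unbound of 0.13 (19 genes) and those without one 0.04 (32 genes), and 4 of each were at least 2-fold lower.

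The closest relatives of these genes were set beside them. Of 102 other ribosome biogenesis factors in a list drawn up by known role, 95 were measured. In bound minus unbound RNA 2 of the 95 (2.11%) were at least 2-fold higher, where 6.36% of all genes were, and 9 (9.47%) lower, where 9.91% were, with a median relative difference of -0.17, against 0.03 in the members. The lowest were TAF1D (-1.88), of the factor that recruits RNA polymerase I, NSA2 (-1.79), of large subunit assembly, and NOB1 (-1.77), the nuclease that makes the final cut of the small subunit RNA. RCL1 (-1.61), a processome protein, and NPM1 (-1.46), nucleophosmin, followed. The 2 higher ones were GNL3L (1.43), a nucleolar GTPase, and TCOF1 (1.05), treacle, which acts in ribosomal RNA transcription. Near the ends of the remaining role groups were MDN1 (0.96), an ATPase of large subunit assembly, BUD23 (0.65) and PDCD11 (0.56) of the small subunit, UBTF (0.70) and TAF1B (0.46) of RNA polymerase I transcription against RRN3 (-0.47), and RUVBL1 (0.88) of snoRNP assembly against NPM3 (-0.93) and ZNHIT3 (-0.67). Cytosolic ribosomal proteins, whose assembly these factors serve, had a median of -2.59, and 57 of 57 were past the 2-fold line toward unbound RNA. The highest ribosomal protein, RPL19 (-1.51), stood above only 4 members: FBL, NOL12, POLR1D and UTP3. Subunits of RNA polymerase II had a median of 0.17 over 12 genes and those of RNA polymerase III -0.32 over 8 measured genes from POLR3A to POLR3K, leaving out POLR1C and POLR1D, which it shares with RNA polymerase I. No gene of either list was past the 2-fold line toward unbound RNA, with POLR2H (-1.0) just short of the line.

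**Figure D4:**
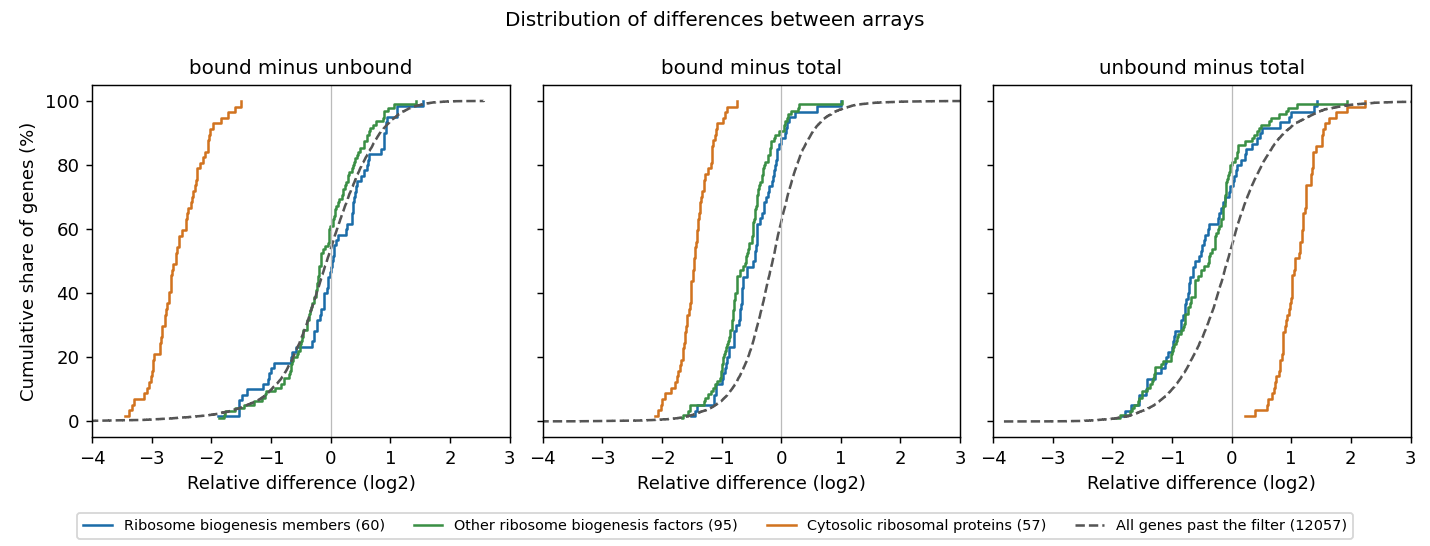
Cumulative share of genes (%, y axis) by relative difference (log2, x axis) for bound minus unbound, bound minus total and unbound minus total RNA, for the 60 members, 95 other ribosome biogenesis factors, 57 cytosolic ribosomal proteins and all 12057 genes past the level filter. In bound minus unbound RNA the members (median 0.03) follow all genes (-0.07), and in the comparisons with total RNA they lie to the left of them (-0.45 against -0.14, and -0.58 against -0.07).

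Bound RNA was next set against total RNA. Here most of these mRNAs were lower: 53 of 60 had a relative difference below 0 (88.3%), against 62.2% of all genes, and the median was -0.45, against -0.14 over all genes. At least 2-fold lower in bound RNA were 7 members, where 6.43% of all genes were, and 1 was higher, where 2.66% were. As deposited, 8 were at least 2-fold higher, where 40.1% of all genes were, and 0 were lower, where 0.572% were. UTP20, a large scaffold protein of the small subunit precursor, was lowest, with 6.78 in bound RNA, against 7.26 in total RNA (relative difference -1.51). NCL followed at -1.44 and FBL at -1.41, and UTP4 (-1.13), UTP25 (-1.12), NOP2 (-1.10) and BMS1 (-1.09), a GTPase of the processome, made up the 7. BMS1 had 8.77 in bound RNA, against 8.82 in total RNA. The 2 probe sets that list BMS1 with its pseudogenes gave 0.35 and 0.30 here, so its difference is uncertain. After removal of the trend with the mean level of the 2 arrays, the count of 7 was 3, where 3.68% of all genes were lower. It was 3 after quantile normalization, where 3.41% were, and 4 of 53 members with a stricter level filter, where 6.0% were. NOL8, a nucleolar protein, was the 1 higher, with 7.96 in bound RNA, against 5.93 in total RNA (1.0). Its level in unbound RNA was 5.86. TSR2 (0.60) and NOL4L (0.23) were next. The other ribosome biogenesis factors had a median of -0.59, with 15 of 95 at least 2-fold lower and 1 higher, DDX55 (1.03). Across all genes the difference of bound minus total RNA had a Pearson r of -0.34 with the total RNA level, over 12057 genes that are not independent replicates. The total RNA level is also subtracted in that difference, so noise of the total RNA array alone can make r negative. After removal of the trend with the mean level of the 2 arrays, which is a separate step, the members' median was -0.40, against 0.01 over all genes.

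Unbound RNA against total RNA showed a wider spread. The members' median relative difference was -0.58, against -0.07 over all genes, and 44 of 60 were below 0 (73.3%), against 54.6% of all genes. At least 2-fold lower in unbound RNA were 14 members (23.3%), where 10.0% of all genes were, and 3 were higher, where 8.08% were. As deposited 22 were lower, where 16.0% of all genes were, and 2 were higher, where 5.42% were. The lowest were NOC2L, with 5.94 in unbound RNA, against 8.03 in total RNA (-1.85), UTP20, with 5.24 against 7.26 (-1.79), and BMS1, with 6.90 against 8.82 (-1.69). BMS1 also occurs in 2 probe sets that list BMS1 pseudogenes beside it, and those gave 0.79 and 0.74 in this comparison, so the value of BMS1 is uncertain. The highest were NOL12, with 6.20 in unbound RNA, against 5.0 in total RNA (1.44), POLR1D, with 8.51 against 7.37 (1.38), and POLR1H, with 6.39 against 5.62 (1.0). Cytosolic ribosomal proteins lay on the other side in this comparison, with a median of 1.07 and 35 of 57 at least 2-fold higher. The other ribosome biogenesis factors had a median of -0.38, with 20 of 95 at least 2-fold lower and 2 higher, TAF1D (1.94) and NSA2 (1.10). Across all genes this difference had a Pearson r of -0.33 with the total RNA level, which is again subtracted in the difference itself. After removal of the trend with the mean level of the 2 arrays, 12 members were lower, where 7.56% of all genes were. On the other side 5 were higher, where 9.39% were. The members' median was then -0.41, against -0.01 over all genes.

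Both comparisons with total RNA share the total RNA array, and that RNA was purified with a different kit. Kit and RNA source therefore cannot be told apart there. Some markers of differentiated cells also differed between the polysome arrays and total RNA. The endoderm and liver marker AFP had 7.08 in bound and 5.58 in unbound RNA, against 3.68 in total RNA, where it was below background. PAX6, a neural and eye marker, had 8.02 in bound and 7.48 in unbound RNA, against 5.27 in total RNA. Differences were smaller for GATA4, with 5.36 in bound and 4.07 in unbound RNA, against 3.92 in total RNA. KRT14 had 4.49 in bound and 3.44 in unbound RNA, against 3.83 in total RNA. These are levels as deposited, with the offset between arrays (1.03 for bound minus total RNA) not removed. Over the 10 markers the levels ran from 3.39 to 8.02 in bound RNA, from 2.61 to 7.48 in unbound RNA and from 2.96 to 5.27 in total RNA, and PTPRC, ALB, MYH6, TBXT, CD34 and NEUROG2 were below background on all 3 arrays. Their part in the comparisons with total RNA was not tested. In a bulk sample, fewer cells of a type and less RNA per cell cannot be told apart.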

How the data were processed

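RNA of H9 cells from 3 sources was measured on 1 Affymetrix gene array each. The authors deposited log2 expression values for 33297 probe sets, made with RMA in Partek 6.5, per the submitters' processing notes. The 3 columns do not share a distribution, all 33297 values of the bound column carry 7 decimals against at most 5 in the others, and the scaling between arrays is therefore unknown, which is why relative differences are given. The number of arrays limits the precision. No build of the array annotation is given in the sources used here, and the RefSeq promoter windows are on GRCh38.p14.

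Gene names came from GEO's platform annotation: 19460 probe sets list 1 symbol, 1754 several and 12083 none. Of the gene IDs, 19429 matched RefSeq, which changed 0 symbols. For 769 genes with more than 1 probe set the one with the highest mean was kept. Genes with a mean over the 3 arrays above 3.84, the 95th percentile of 459 tissue-restricted genes, entered the comparisons. Members, lists and settings were chosen with earlier results of these data known.

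Full values were given for the 5 highest and 5 lowest members in bound minus unbound RNA, the ends of each role group, the 3 highest and lowest against total RNA and all snoRNP core proteins and RNA polymerase I subunits. The 2 highest and 2 lowest genes of each role group of the other ribosome biogenesis factors were given by relative difference of bound minus unbound RNA. A further part of that rule, the highest and lowest levels in total RNA, was not used because levels of different probe sets are not comparable. The markers AFP, PAX6, GATA4 and KRT14 were named after their values were seen. Because each source has 1 array, no test was run. Alternatives were other scalings, filters, thresholds (1.5-fold, 3-fold) and probe set rules, members of known role only, and, added after the data were seen, members above background on both arrays. Scripts were tested on simulated data. Versions were matplotlib 3.10.9, statsmodels 0.14.6, pandas 2.3.3, numpy 2.4.6 and Python 3.11.15.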

Additional observations from a re-analysis of the deposited data

How the results depend on the processing

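With 1 array per source, no setting can show the spread between samples, and a median is said to move at a change of 0.1 (log2) and a count at more than 1.5 times. Without centring, bound minus unbound RNA had 43 members higher, 0 lower and a median of 1.29, bound minus total had 8 higher, 0 lower and 0.58, and unbound minus total had 22 lower and -0.81. These moves follow from adding the offset back, which left 6 members (751 of all 12057 genes) below 0 in bound minus unbound RNA. After centring it was 28 members (6483 of all genes). Of the 10 past the 2-fold line, NOP2 (0.21), RRS1 (0.25), UTP14A (0.12) and UTP4 (0.23) took the opposite sign. Quantile normalization gave 9 members higher (10.8% of all genes) and a median of 0.16 (0.13 over all genes) in bound minus unbound RNA, and 3 lower in bound minus total (3.41% of all genes). After lowess 3 were lower in bound minus total (3.68% of all genes). In unbound minus total 5 were then higher (9.39% of all genes), with a median of -0.41 (-0.01 over all genes). Without a level filter 6 were higher in bound minus unbound RNA (5.29% of all genes). The stricter filter left 4 lower in bound minus total (6.0% of all genes), over 53 members. The median of unbound minus total was then -0.45 (-0.03 over all genes). With genes of 1 probe set the median of bound minus total was -0.57 (-0.14 over all genes). A line at 1.5-fold gave 13 higher (17.7% of all genes) and 13 lower (22.1%) in bound minus unbound RNA. In bound minus total it gave 2 higher (8.19%) and 27 lower (18.5%), and in unbound minus total 5 higher (17.4%) and 30 lower (22.3%). A line at 3-fold left 0 higher (0.846% of all genes) and 1 lower (3.88%) in bound minus unbound RNA. In bound minus total it left 0 higher (0.564%) and 0 lower (1.53%), and in unbound minus total 0 higher (2.56%) and 3 lower (2.62%). Values of single members over the 3 comparisons moved too. Under quantile normalization 100 moved by 0.1 or more and 80 did not, and under lowess 60 moved and 120 did not. FBL in bound minus unbound RNA was -1.28 under quantile normalization and -1.50 under lowess. For the moves under quantile normalization, lowess, the filters and genes of 1 probe set the cause was not tested. Averaging the probe sets of a gene and leaving out members by symbol only moved no count by more than 1.5 times and no median by 0.1. Averaging left 2 instead of 3 higher in unbound minus total (7.82% of all genes), POLR1H being at 0.68 there. Keeping members above background on both arrays kept all 60, so that setting could not move any value. No paired analysis was possible because each source has 1 array and no test was run.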
